A study of Homo sapiens with 18 samples.

Results

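The hypoxia response of MDA-MB-231 cells was compared between cells left without drug and cells incubated with 50 µM paclitaxel, on the 12 arrays of the 18 in the series that carry these 4 conditions. The arrays were taken by title: N_CTL (normoxia, no drug), H_CTL (1% oxygen, no drug), N_TAX (normoxia, paclitaxel) and H_TAX (1% oxygen, paclitaxel), with 3 arrays each and an incubation of 16 hours. The quantity followed throughout is a difference of differences on the log2 scale, the hypoxia effect with paclitaxel (H_TAX minus N_TAX) minus the hypoxia effect in control cells (H_CTL minus N_CTL). MDA-MB-231 is an established human breast cancer line of mesenchymal type without oestrogen receptor, so the comparison holds for 1 line at 1 dose and 1 time, in serum-free medium. For the arrays numbered 3, the title and the source name give different drugs at the same oxygen level. All 6 such arrays in the series correlated more closely with the condition of their title (0.9954 to 0.9989) than with that of their source name (0.9386 to 0.9884), and results are also given for arrays 1 and 2 only.

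Cells short of oxygen stabilize the alpha subunits of the hypoxia-inducible factors (HIF), which pair with ARNT and bind short DNA elements near genes of glycolysis, blood vessel growth, matrix modification and iron supply. Paclitaxel binds the beta subunit of tubulin, stabilizes microtubules and holds dividing cells in mitosis. A gene whose hypoxia effect is the same with and without the drug has a difference of 0 on this scale, and a gene that rises less under hypoxia with the drug has a negative one.

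The values are GC-RMA signals on a log2 scale, a normalization that corrects the background of each probe by its base composition and lets probe sets without signal settle at a floor (2.23 at the lowest). A probe set counted as present when its linear signal exceeded 8.84, the study's threshold (3.14 as log2), and by this threshold each array had 42.1% to 42.6% of its probe sets present. The line's markers VIM, CD44, AXL, MET and EGFR were present on all 12 arrays, and ESR1, PGR and CDH1 on none, whereas EPCAM, which was listed as low or absent in this line, was present on all 12 (6.01 to 7.16). The keratins KRT18 (13.83 to 14.88) and KRT8 (9.9 to 10.82), also on this list, were present on all 12 as well. Of the markers of other cell types, PECAM1 and COL1A1 were present on all 12 arrays, and PTPRC, CD3E, CD14, CDH5, COL3A1 and ALB were present on none. The summed linear signal of these markers was 222 to 264 in N_CTL, 286 to 336 in H_CTL, 148 to 158 in N_TAX and 143 to 230 in H_TAX. The ACTB control probe sets differed between their 3′ and 5′ ends by -0.04 to 0.04 in N_CTL, 0.07 to 0.31 in H_CTL, 0.11 to 0.24 in N_TAX and 0.24 to 0.43 in H_TAX. The part of these 2 shifts in the results below was not tested.

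Where paclitaxel altered the hypoxia response, the response was mostly smaller with the drug. Of 23914 probe sets tested, 382 passed the test of the difference (limma, adjusted p under 0.05), 221 with a higher hypoxia effect with the drug (0.924%) and 161 with a lower one (0.673%). Among the 382, 201 fell under hypoxia in control cells with a smaller effect in paclitaxel (blunted falls), and 133 rose with a smaller one (blunted rises). Smaller refers to absolute size, so effects of the opposite sign with the drug that were not past the test are included. With paclitaxel, the hypoxia effect was past the test for 18 of the 201 and 26 of the 133. An enlarged response was found for 26 falls and 14 rises, 7 probe sets had effects past the test with opposite signs, and 1, of ABHD11, met none of these definitions. Of the enlarged falls and of the enlarged rises, 1 each had a hypoxia effect past the test in control cells. The median hypoxia effect of the blunted falls was -0.90 in control cells and -0.05 with paclitaxel. For the blunted rises it was 1.26 and 0.11. In control cells, hypoxia raised 2162 probe sets (9.04%) and lowered 4110 (17.2%), and with paclitaxel it raised 782 (3.27%) and lowered 1209 (5.06%). A difference in these counts is not itself a test, and the statements on single genes below rest on the test of the difference.

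**Figure D1:**
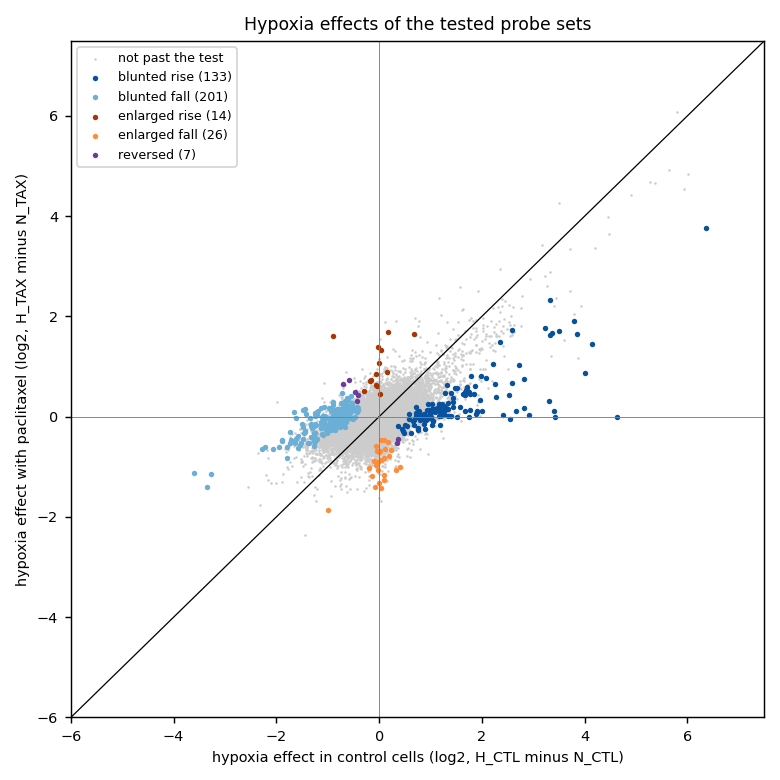
Hypoxia effect in control cells (x axis, log2) against the hypoxia effect in paclitaxel-treated cells (y axis, log2) for the 23914 probe sets tested, with the diagonal of equal effects. The 133 blunted rises lie to the right below the diagonal and the 201 blunted falls to the left above it, most of both close to the horizontal line at 0.

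The count depended on single arrays. With one array left out, it was 80, 31 and 103 without N_CTL replicates 1, 2 and 3, 122, 429 and 298 without those of H_CTL, 47, 353 and 82 without those of N_TAX, and 787, 112 and 73 without those of H_TAX. With arrays 1 and 2 only, 19 probe sets passed, 15 of them among the 382. With the arrays numbered 3 placed by source name, no probe set passed (65 at an unadjusted p under 0.05, against 4247 by title). In all 382, every one of the 9 pairwise hypoxia differences with paclitaxel lay outside the range of the 9 without it, which held for 9.26% of all probe sets tested. The 382 were chosen by the test of this same difference on these arrays, so their separate ranges are no further evidence.

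Among the rises blunted by paclitaxel were those of 4 secreted peptides, ARTN, APLN, UCN2 and ADM. Artemin (ARTN), a ligand of the GDNF family, gave 3.38, 3.78 and 3.19 in N_CTL, 7.09, 6.91 and 6.57 in H_CTL, 3.08, 3.25 and 3.17 in N_TAX and 3.30, 3.29 and 3.23 in H_TAX. The H_CTL arrays stood apart, and the other 9 lay together near the threshold of presence. ARTN thus rose 10.6-fold under hypoxia in control cells and gave 1.08-fold with paclitaxel, a difference of -3.30 ± 0.22 (SE, adjusted p = 9.36e-05), and its other tested probe sets, also past the test, gave -2.56 and -2.59. Apelin (APLN), the peptide ligand of the APJ receptor, gave 4.96, 4.64 and 4.70 in N_CTL, 7.15, 7.38 and 7.04 in H_CTL, 4.08, 4.08 and 4.01 in N_TAX and 4.05, 4.21 and 4.01 in H_TAX. Here too H_CTL alone was high, and both paclitaxel conditions lay below N_CTL. The difference was -2.39 ± 0.16 (adjusted p = 9.36e-05), while a second APLN probe set gave -0.13 (adjusted p = 0.771). Urocortin 2 (UCN2), a peptide of the corticotropin-releasing factor family, gave 3.94, 3.87 and 4.07 in N_CTL, 8.05, 8.20 and 8.06 in H_CTL, 3.25, 3.43 and 3.43 in N_TAX and 5.16, 4.60 and 4.65 in H_TAX. It rose in both settings, 17.7-fold without and 2.71-fold with the drug, and the H_TAX arrays reached none of the H_CTL levels (difference -2.71 ± 0.19, adjusted p = 0.000131). The calls of ARTN, APLN and UCN2 held in all 12 fits that left out 1 array. With arrays 1 and 2 only, the adjusted p was 0.0239 for ARTN, 0.0429 for APLN and 0.0625 for UCN2.

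Adrenomedullin (ADM), a vasodilator peptide and a known HIF target, had another pattern. Its signal was 9.10, 8.99 and 8.77 in N_CTL, 13.16, 12.87 and 12.37 in H_CTL, 10.86, 10.61 and 10.84 in N_TAX and 13.02, 12.41 and 11.84 in H_TAX. The H_CTL and H_TAX arrays overlapped, and it was the N_TAX arrays that lay above N_CTL. ADM rose 14.4-fold without and 3.14-fold with paclitaxel (difference -2.20 ± 0.38, adjusted p = 0.0283), and paclitaxel raised it by 1.82 in normoxia (adjusted p = 0.00032) with -0.38 in hypoxia (adjusted p = 0.273). TMEM45A, which encodes a transmembrane protein, showed the same order of levels. It gave 4.62, 4.50 and 5.79 in N_CTL, 11.43, 11.34 and 11.26 in H_CTL, 7.31, 6.87 and 7.53 in N_TAX and 11.26, 11.05 and 10.70 in H_TAX. Both hypoxic conditions ended close to each other, and the paclitaxel arrays in normoxia started well above the control ones. The rise was 82.9-fold in control cells and 13.6-fold with paclitaxel (difference -2.61 ± 0.43, adjusted p = 0.0242, and 0.0429 with arrays 1 and 2 only). On leaving out 1 array, the difference ran from -2.50 to -1.90 for ADM and from -3.02 to -2.38 for TMEM45A, with the highest adjusted p at 0.0681 and 0.0601.

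**Figure D2:**
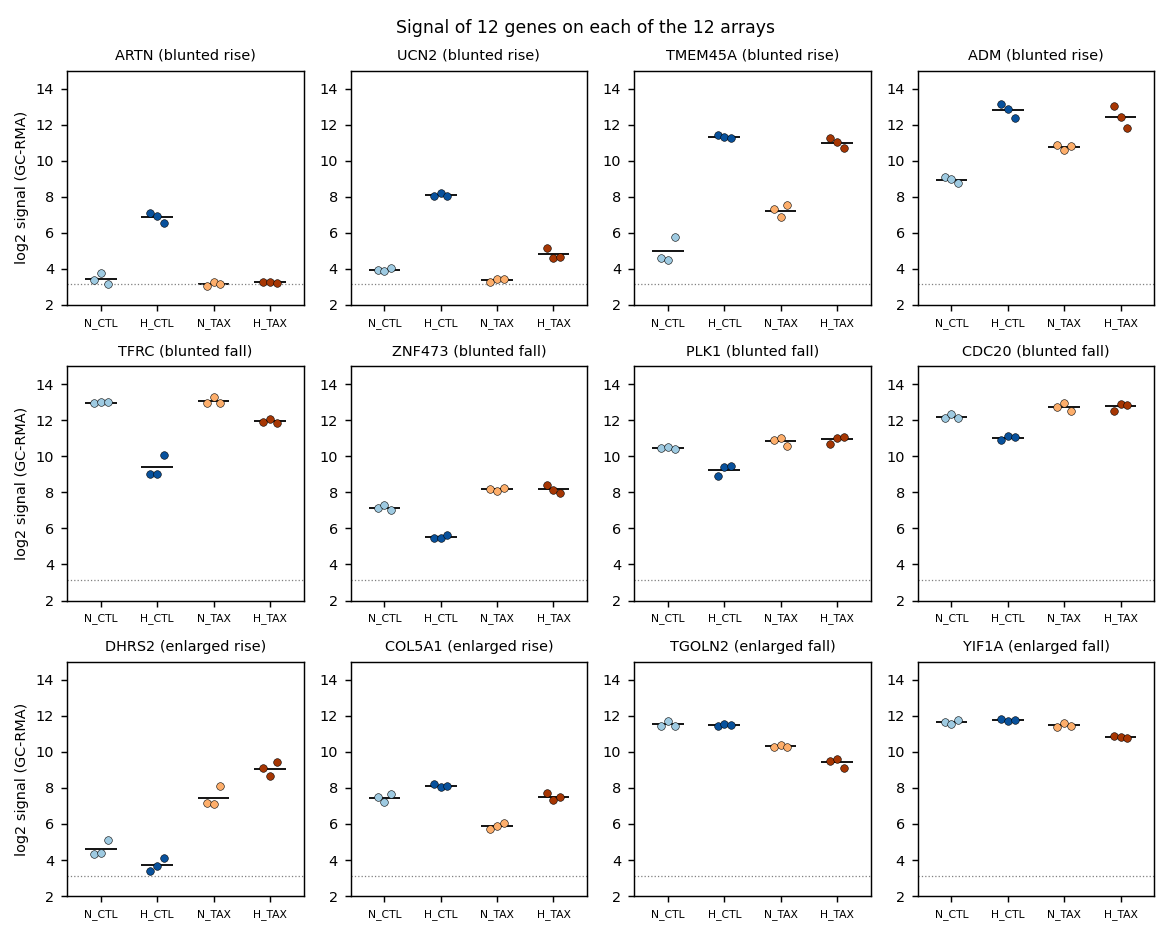
Log2 signal (y axis) of 12 genes on each array of the 4 conditions (x axis), with the mean of each condition as a bar and the threshold of presence (3.14) as a dotted line. ARTN and UCN2 were high in H_CTL, whereas for ADM and TMEM45A both hypoxic conditions were high and N_TAX lay above N_CTL.

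Of the 133 blunted rises, paclitaxel lowered 107 in hypoxia and raised 7, where it lowered 23.9% and raised 25.1% of all probe sets tested. In normoxia it raised 31 and lowered 32, against 22.1% and 23.9% of all. These paclitaxel effects share arrays with the hypoxia effects and are given only side by side with them. The class was chosen by the difference on these same arrays, which favours lower signal with paclitaxel in hypoxia. Several blunted rises were limited by the floor, where the signal in most conditions was below the threshold. RASSF2, a Ras-association domain protein, was listed at 2.23, 2.33 and 2.23 in N_CTL and at 2.23 on every paclitaxel array, against 5.60, 5.69 and 5.79 in H_CTL. It was present in H_CTL alone, so its rise in control cells was at least 5.85-fold and no fold can be given with paclitaxel. Its difference of -3.43 ± 0.10 (adjusted p = 6.31e-08) was -2.55 with values under the threshold set to it, and it passed with arrays 1 and 2 only (adjusted p = 0.00271). FAM162A, a mitochondrial protein gene induced by hypoxia, gave 2.32, 2.36 and 2.35 in N_CTL, 6.58, 6.41 and 6.06 in H_CTL, 2.32 on each N_TAX array and 3.61, 3.57 and 2.39 in H_TAX at this probe set. It rose at least 9.23-fold in control cells, and its effect of 0.87 with paclitaxel did not pass (adjusted p = 0.0728, difference -3.14 ± 0.38, adjusted p = 0.00791). Its 3 other probe sets, present in all conditions, gave smaller differences of -0.66, -0.68 and -0.54 that did not pass (adjusted p = 0.0654, 0.114 and 0.199). PDK3, a pyruvate dehydrogenase kinase, chosen after its values were seen, gave 5.31, 5.49 and 4.91 in H_CTL and 2.24 to 2.33 on the other 9 arrays at 1 probe set (difference -2.88, adjusted p = 5.87e-05). The other tested PDK3 probe sets gave -0.01, -1.06 and -1.24 and did not pass. PPFIA4, a liprin scaffold gene, and the long non-coding RNA LINC02535 differed by -2.08 and -1.89, with adjusted p up to 0.0601 and 0.0599 on leaving out 1 array. MIR210HG, the host transcript of miR-210, gave -1.90 (adjusted p = 0.0242) at 1 probe set and -1.17 (adjusted p = 0.165) at the other, which passed at -1.64 (adjusted p = 0.0332) with values under the threshold set to it. The most negative difference of all, -4.64 (adjusted p = 0.00869), came from a probe set that has no gene name here, with 8.71, 7.71 and 7.12 in H_CTL and 2.23 to 2.24 on the 6 paclitaxel arrays.

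The promoter windows of 4 of these genes are shown because HIF binds the letters ACGTG or GCGTG, which were searched on both strands (as CACGT and CACGC on the other one) and are in capitals. A CACGTG holds ACGTG on both strands at once. Each window runs 5′ to 3′ from 250 bases before to 50 after the annotated start, from RefSeq on GRCh38.p14. RASSF2 (chr20:4815098-4815397, minus strand), FAM162A (chr3:122383932-122384231, plus strand) and ADM (chr11:10304823-10305122, plus strand) had blunted rises, and TFRC (chr3:196082041-196082340, minus strand) had the largest blunted fall among the genes named.
RASSF2: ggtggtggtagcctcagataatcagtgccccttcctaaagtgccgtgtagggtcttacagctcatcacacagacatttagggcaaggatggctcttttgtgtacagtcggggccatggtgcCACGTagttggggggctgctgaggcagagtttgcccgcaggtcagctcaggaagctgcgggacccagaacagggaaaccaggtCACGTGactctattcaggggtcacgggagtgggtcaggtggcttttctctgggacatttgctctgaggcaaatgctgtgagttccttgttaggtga
FAM162A: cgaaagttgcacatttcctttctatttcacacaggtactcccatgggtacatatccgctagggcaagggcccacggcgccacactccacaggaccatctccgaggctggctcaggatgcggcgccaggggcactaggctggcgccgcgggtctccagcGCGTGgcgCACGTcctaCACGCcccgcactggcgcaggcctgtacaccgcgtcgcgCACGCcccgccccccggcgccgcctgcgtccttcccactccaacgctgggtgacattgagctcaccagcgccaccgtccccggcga
ADM: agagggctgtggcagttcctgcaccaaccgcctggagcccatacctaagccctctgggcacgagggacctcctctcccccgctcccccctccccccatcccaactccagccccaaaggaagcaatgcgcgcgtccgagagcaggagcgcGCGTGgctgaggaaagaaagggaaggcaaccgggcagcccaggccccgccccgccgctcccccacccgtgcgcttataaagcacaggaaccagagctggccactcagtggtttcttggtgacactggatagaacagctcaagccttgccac
TFRC: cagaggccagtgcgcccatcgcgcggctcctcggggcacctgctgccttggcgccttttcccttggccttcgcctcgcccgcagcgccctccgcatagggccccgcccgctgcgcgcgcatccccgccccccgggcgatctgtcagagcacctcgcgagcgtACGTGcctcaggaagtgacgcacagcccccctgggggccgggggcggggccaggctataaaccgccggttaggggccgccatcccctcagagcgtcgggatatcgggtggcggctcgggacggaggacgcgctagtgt
Either motif occurred in 48.4% of all 35116 windows, ACGTG in 21.4% and GCGTG in 36.5%. Among the genes named here, 53 of 57 with a difference past the test had a window, and some had several. Either motif was in 18 of 27 windows of blunted rises (66.7%), 13 of 20 of blunted falls (65%), 6 of 10 of enlarged rises (60%) and 5 of 8 of enlarged falls (62.5%). In the same order, ACGTG was in 44.4%, 25%, 30% and 25% of these windows, and GCGTG in 48.1%, 55%, 40% and 37.5%. These windows are few and some overlap, the share over all windows is not limited to genes tested here, and no difference in share was tested. No window of ARTN, UCN2, TMEM45A, LOXL4, CALHM6 or LINC02535, all with blunted rises, held either motif. This says only that these letters are not in their windows. The 4 windows shown all hold a motif, and each window of a gene was counted by itself.

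Of the 29 measured genes of a hypoxia response list, 7 had a lower hypoxia effect with paclitaxel and none a higher one, against 73 lower (0.657%) and 119 higher (1.07%) of 11118 genes. The median difference of the list was -0.49, and 0.033 over all genes. Hypoxia still acted on most of the list: 28 of the 29 rose in control cells and 23 with paclitaxel, where 9.38% and 3.53% of all genes rose. The median rise went from 2.26 to 1.62. Besides ADM, TMEM45A and PPFIA4, the members past the test were MXI1, a MYC antagonist, the lipoprotein receptor VLDLR, the mTORC1 inhibitor DDIT4 and P4HA1, a subunit of the collagen prolyl hydroxylase. DDIT4 gave 12.19, 12.40 and 12.22 in N_CTL, 14.09, 13.84 and 13.97 in H_CTL, 13.57, 13.87 and 13.69 in N_TAX and 14.34, 14.20 and 14.17 in H_TAX. All 6 hypoxic arrays lay above the normoxic arrays of the same treatment, and N_TAX overlapped with H_CTL. The difference was -1.17 ± 0.15 (adjusted p = 0.00869), and its call held in all 12 fits that left out 1 array. MXI1 gave 9.15, 8.73 and 9.45 in N_CTL, 12.69, 12.39 and 12.23 in H_CTL, 10.29, 10.10 and 10.48 in N_TAX and 12.24, 11.72 and 11.76 in H_TAX, a difference of -1.71 ± 0.29 (adjusted p = 0.0262). Its N_TAX arrays lay above N_CTL, and H_CTL and H_TAX overlapped only at 12.23 and 12.24. VLDLR differed by -1.59 ± 0.23 (adjusted p = 0.017), which was lost only without N_CTL replicate 2 (adjusted p = 0.0568). For MXI1 and P4HA1, single arrays left out gave adjusted p up to 0.0635 and 0.0974.

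**Figure D3:**
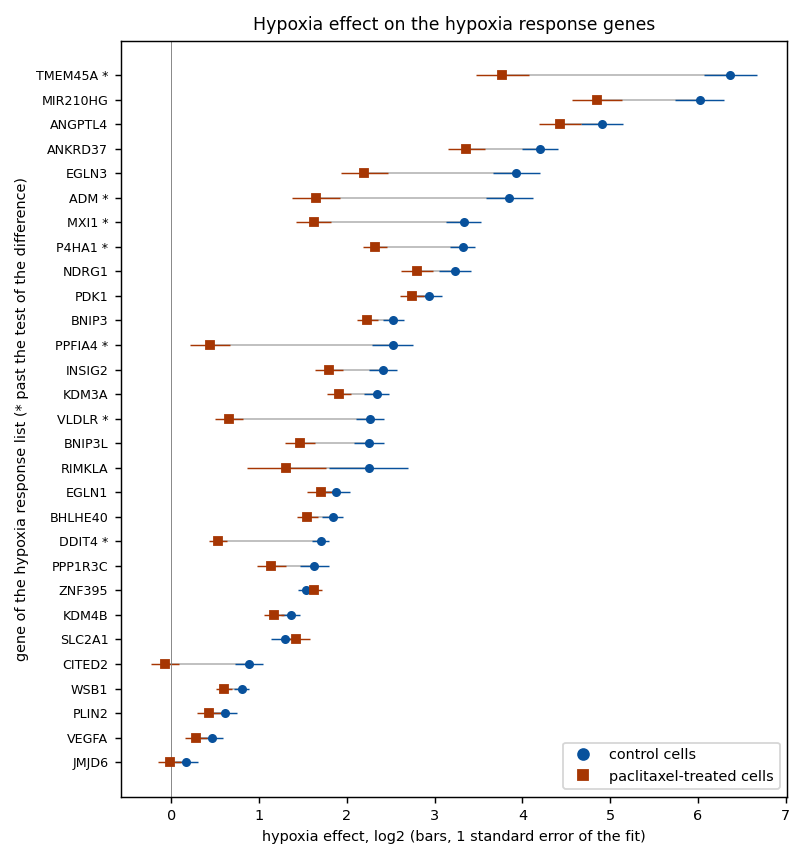
Hypoxia effect (x axis, log2, ± 1 SE of the fit) on each of the 29 genes of the hypoxia response list (y axis) in control cells (circles) and with paclitaxel (squares). For 27 of the 29 the square lies to the left of the circle, and stars mark the 7 genes past the test of the difference.

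Other genes with strong induction were not past the test. EGLN3, the HIF prolyl hydroxylase that rises in hypoxia, gave 7.40, 6.68 and 6.68 in H_CTL and 5.72, 5.46 and 4.53 in H_TAX, with all normoxic arrays under the threshold. Its difference was -1.73 ± 0.39 (adjusted p = 0.0547). ANGPTL4 gave rises of 4.91 without and 4.43 with the drug and ANKRD37 4.20 and 3.36 (log2). The 21 glycolysis genes had a median difference of 0.03 and none passed in either direction: 18 rose in control cells and 19 with paclitaxel, where 9.38% and 3.53% of all genes rose. Among them ALDOC rose by 5.38 and 4.66, SLC2A3 by 2.63 and 1.83 and PFKFB4 by 3.50 and 4.26, the last with a difference of 0.76 ± 0.20 (adjusted p = 0.0815). Of the 11 oxygen-sensing genes none passed (median -0.17). HIF1A itself fell by 1.90 under hypoxia in control cells and by 1.30 with paclitaxel (difference 0.61 ± 0.22, adjusted p = 0.197). Of 15 JmjC histone demethylase genes, a family of oxygen-dependent enzymes, none passed, although all 15 differences were negative (median -0.29).

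Matrix genes were among those blunted. Of 16 measured genes of collagen modification and matrix, 3 had a lower hypoxia effect with paclitaxel and none a higher one (median -0.32). The shares of all genes were 0.657% lower and 1.07% higher. Lysyl oxidase (LOX), which cross-links collagen, gave 7.79, 7.44 and 7.71 in N_CTL, 11.41, 11.01 and 11.04 in H_CTL, 8.97, 8.60 and 9.02 in N_TAX and 11.10, 10.41 and 10.22 in H_TAX. It was high in both hypoxic conditions and higher in N_TAX than in N_CTL, rising 11.4-fold without and 3.28-fold with the drug (difference -1.80 ± 0.31, adjusted p = 0.027), and its other probe sets gave -1.70 (adjusted p = 0.0416) and -1.75 (adjusted p = 0.0565). LOXL4, of the same family, gave 8.62, 8.44 and 8.35 in N_CTL, 11.05, 10.75 and 10.28 in H_CTL, 7.16, 7.10 and 6.99 in N_TAX and 8.03, 8.38 and 8.01 in H_TAX. Here paclitaxel lay lower in both oxygen conditions, and the rise was 4.67-fold and 2.08-fold (difference -1.17 ± 0.25, adjusted p = 0.0466). P4HA1 rose 10.0-fold and 5.01-fold. The highest adjusted p on leaving out 1 array was 0.0669 for LOX, 0.111 for LOXL4 and 0.0974 for P4HA1. The 16 secreted angiogenic factors had ADM as the member past the test (median -0.20). Placental growth factor (PGF) was represented by a probe set with no hypoxia effect past the test, while another PGF probe set, chosen after its values were seen, gave 9.28, 9.52 and 9.37 in H_CTL and 7.51, 7.40 and 7.29 in H_TAX (difference -1.46 ± 0.18, adjusted p = 0.00869).

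Of 27 genes in the study's own selection, chosen on these samples and therefore no independent evidence of direction, 2 (TMEM45A and P4HA1) passed with a lower effect and none with a higher one (median -0.30), and 25 rose in each treatment. Over all genes, 0.657% passed with a lower effect and 1.07% with a higher one. Hypoxia raised 9.38% of all genes in control cells and 3.53% with paclitaxel. CALHM6 (FAM26F in the paper), STC1, GDF15 and S100A10 were outside this selection and were measured by real-time PCR in the paper. The paper detected no change of S100A10 by that method. CALHM6, a calcium homeostasis modulator, gave 6.14, 6.01 and 6.29 in N_CTL, 8.57, 8.52 and 8.44 in H_CTL, 5.40, 5.53 and 5.75 in N_TAX and 7.09, 7.06 and 6.98 in H_TAX. Both paclitaxel conditions lay below the matching control arrays. The rise was 5.15-fold and 2.80-fold (difference -0.88 ± 0.15, adjusted p = 0.0262), with a second probe set at -0.48 (adjusted p = 0.149). The call was lost in 6 of the 12 fits that left out 1 array (adjusted p up to 0.0635). Stanniocalcin 1 (STC1), a secreted glycoprotein, differed by -1.13 (adjusted p = 0.0644), S100A10 by 0.08 and GDF15 by 0.32 ± 1.02. MALL, a member of the selection, differed by 0.82 (adjusted p = 0.0731).

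The transcriptional repressors BHLHE41, NFIL3 and MXI1 were the 3 members with a lower effect among 22 genes of the ID, bHLH repressor and clock list (none higher, median -0.19). Over all genes, 0.657% were lower and 1.07% higher. BHLHE41 gave 6.81, 7.11 and 7.11 in N_CTL, 9.15, 9.01 and 9.11 in H_CTL, 7.26, 7.04 and 7.65 in N_TAX and 8.35, 8.06 and 7.87 in H_TAX. The H_TAX arrays lay between the normoxic ones and H_CTL, and the difference was -1.30 ± 0.23 (adjusted p = 0.0286), with -1.32 (adjusted p = 0.0155) and -0.55 (adjusted p = 0.272) at the other probe sets. NFIL3 differed by -1.18 ± 0.25 (adjusted p = 0.0478). Cyclin G2 (CCNG2), which marks quiescent cells, was the member past the test in a list of 18 measured genes headed p53 target genes. Whether CCNG2 depends on p53 in this line was not tested. CCNG2 rose 3.22-fold in control cells and gave 1.41-fold with paclitaxel (difference -1.19 ± 0.20, adjusted p = 0.0252). Another 2 CCNG2 probe sets also passed (-1.32 and -1.17), while a further one did not (-0.91, adjusted p = 0.113). Without single arrays, the highest adjusted p was 0.0719 for BHLHE41, 0.111 for NFIL3 and 0.0625 for CCNG2.

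Among the genes that fell under hypoxia, the transferrin receptor TFRC, which brings iron into cells, was blunted most. Its signal was 12.93, 13.01 and 12.99 in N_CTL, 9.0, 9.04 and 10.10 in H_CTL, 12.98, 13.30 and 12.94 in N_TAX and 11.93, 12.06 and 11.84 in H_TAX. The normoxic conditions overlapped, and every H_TAX array lay above every H_CTL array. TFRC fell 12.1-fold in control cells and 2.19-fold with paclitaxel (difference 2.47 ± 0.34, adjusted p = 0.0155, and 0.0239 with arrays 1 and 2 only). The call was lost without N_CTL replicate 2 (adjusted p = 0.0558) at a difference between 2.27 and 2.83 over all left-out arrays. Both of its other probe sets with a hypoxia effect gave 2.11 and 1.94, past the test, and a further one, flat under hypoxia (-0.02 in both treatments), gave 0. TFRC was the only one of 10 iron genes past the test (median 0.11), where 1.07% of all genes had a higher effect.

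The 30 genes of mitosis and spindle gave 6 with a higher hypoxia effect with paclitaxel and none with a lower one (median 0.38). Of all genes, 1.07% had a higher and 0.657% a lower effect. In control cells 16 of the 30 fell under hypoxia, and with paclitaxel none fell or rose, where 20% and 5.27% of all genes fell. Polo-like kinase 1 (PLK1), which drives mitotic entry, gave 10.46, 10.49 and 10.42 in N_CTL, 8.89, 9.39 and 9.46 in H_CTL, 10.91, 11.02 and 10.59 in N_TAX and 10.70, 11.03 and 11.09 in H_TAX. H_CTL alone was low, and the 2 paclitaxel conditions overlapped each other above N_CTL. It fell 2.32-fold in control cells and gave 1.07-fold with paclitaxel (difference 1.31 ± 0.23, adjusted p = 0.0286). CDC20, the activator of the anaphase-promoting complex, gave 12.13, 12.35 and 12.14 in N_CTL, 10.88, 11.11 and 11.05 in H_CTL, 12.75, 12.94 and 12.54 in N_TAX and 12.54, 12.91 and 12.86 in H_TAX, with the same order (difference 1.22 ± 0.18, adjusted p = 0.0202). Cyclin B1 (CCNB1), the partner of CDK1, gave 13.31, 13.30 and 13.19 in N_CTL, 12.02, 12.31 and 12.21 in H_CTL, 13.78, 13.71 and 13.77 in N_TAX and 13.57, 13.50 and 13.72 in H_TAX (difference 0.93 ± 0.13, adjusted p = 0.0155). H_CTL was again low and all paclitaxel arrays lay above N_CTL, and a second probe set gave 0.72 (adjusted p = 0.0725). The kinesin KIF20A differed by 0.86, and the centromere proteins CENPE and CENPA, outside the naming rule, by 0.76 and 0.70. Survivin (BIRC5), an inhibitor of apoptosis and a mitotic protein, differed by 0.65 ± 0.12 (adjusted p = 0.0341) and was the member past the test of 28 apoptosis genes (median 0.04). Its 3 other probe sets gave 0.51 to 0.61 and did not pass. Without single arrays, CCNB1 was lost without N_CTL replicate 2 (adjusted p = 0.0558) and CDC20 without N_CTL replicate 2, N_TAX replicate 1 and H_TAX replicate 3 (adjusted p up to 0.0575), while PLK1 reached 0.0719, KIF20A 0.0697 and BIRC5 0.0866. With arrays 1 and 2 only, the differences were 1.24 for PLK1, 1.13 for CDC20 and 0.93 for CCNB1, none past the test. In bulk RNA, fewer cells in mitosis and less of each transcript per cell cannot be told apart.

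Other blunted falls had no common list. ARHGAP5-AS1, an antisense RNA, gave 7.26, 7.26 and 7.24 in N_CTL, 5.27, 5.60 and 5.91 in H_CTL, 4.20, 3.81 and 3.96 in N_TAX and 4.01, 4.05 and 4.22 in H_TAX. Its fall in control cells stopped well above the level that paclitaxel gave at either oxygen tension (difference 1.76 ± 0.21, adjusted p = 0.00791). ZNF473, a zinc finger protein of histone mRNA processing, gave 7.15, 7.29 and 7.01 in N_CTL, 5.49, 5.47 and 5.66 in H_CTL, 8.18, 8.09 and 8.26 in N_TAX and 8.39, 8.15 and 7.94 in H_TAX, so that paclitaxel was higher in both oxygen conditions (difference 1.59 ± 0.17, adjusted p = 0.00381). These 2 calls and that of ADAMTS3 held in all 12 fits that left out 1 array, and ZNF473 and ADAMTS3 also passed with arrays 1 and 2 only (adjusted p = 0.0429 for each). A second ZNF473 probe set gave 0.66 (adjusted p = 0.383). ADAMTS3, a procollagen proteinase, and cyclin F (CCNF, 1.30) were limited by the floor at these probe sets. A second CCNF probe set, present in all conditions, gave 0.52 (adjusted p = 0.175). ADAMTS3 was present in N_CTL alone (3.70, 3.67 and 3.66), with a fall of at least 1.45-fold in control cells, and its difference of 1.33 was 0.53 with values under the threshold set to it. The centriole gene SCLT1, SMIM7, a small membrane protein, and the formin INF2 differed by 1.65, 1.62 and 1.61 at 1 probe set each, and their other probe sets, 7 in all, gave -0.05 to 0.36 and did not pass. Without single arrays, the adjusted p reached 0.0878, 0.101 and 0.0959 for these 3 genes and 0.0599 for CCNF. Paclitaxel raised 153 of the 201 blunted falls in hypoxia and lowered 11, against 25.1% and 23.9% of all probe sets tested, and in normoxia it raised 61 and lowered 58, against 22.1% and 23.9%. The class was chosen by the difference on these same arrays, which favours higher signal with paclitaxel in hypoxia. These counts are therefore no separate evidence.

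Among stress responses, the 21 genes of the unfolded protein response had a median difference of -0.36 and 1 member past the test, PDIA4, a disulfide isomerase of the endoplasmic reticulum. It gave 9.48, 9.37 and 9.79 in N_CTL, 10.82, 10.63 and 10.42 in H_CTL, 10.83, 10.60 and 10.79 in N_TAX and 10.87, 10.84 and 10.78 in H_TAX. N_CTL alone was low, and the other 3 conditions lay together (difference -0.99 ± 0.18, adjusted p = 0.0325, and -0.91 at a second probe set, also past the test). In control cells 10 of these 21 genes rose and with paclitaxel 1, where 9.38% and 3.53% of all genes rose. Of 23 genes of the integrated stress response, VLDLR and DDIT4 passed with a lower effect and ATF5, a transcription factor, with a higher one (0.93 ± 0.20, adjusted p = 0.0496), while 2 other ATF5 probe sets gave -0.11 and -0.12. Over all genes, 0.657% passed with a lower effect and 1.07% with a higher one. Of 13 cytosolic heat shock genes, DNAJB1, an HSP40 co-chaperone, passed with a higher effect (0.97 ± 0.21, adjusted p = 0.0485, median of the list 0.29). It fell 1.47-fold in control cells and gave 1.34-fold upwards with the drug, not past the test, and a second probe set differed by 0.83 (adjusted p = 0.0646). Leaving out single arrays took the adjusted p up to 0.0848 for PDIA4, 0.113 for ATF5 and 0.109 for DNAJB1.

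Fewer responses were enlarged, and 1 of the 14 enlarged rises had a hypoxia effect past the test in control cells. DHRS2, a short-chain dehydrogenase, gave 4.31, 4.38 and 5.11 in N_CTL, 3.38, 3.64 and 4.09 in H_CTL, 7.18, 7.11 and 8.09 in N_TAX and 9.10, 8.68 and 9.41 in H_TAX. Every paclitaxel array lay above every control array, and within the drug the hypoxic ones were higher. DHRS2 rose 3.05-fold under hypoxia with paclitaxel, and its effect in control cells was -0.90 and not past the test (difference 2.50 ± 0.44, adjusted p = 0.0286, and 0.0429 with arrays 1 and 2 only). A second probe set gave 0.89 (adjusted p = 0.408). COL5A1, a fibrillar collagen, gave 7.47, 7.21 and 7.66 in N_CTL, 8.24, 8.03 and 8.08 in H_CTL, 5.70, 5.90 and 6.03 in N_TAX and 7.73, 7.35 and 7.48 in H_TAX. It rose in both, 1.59-fold and 3.13-fold, from a lower start with paclitaxel (difference 0.98 ± 0.20, adjusted p = 0.0402), and its other probe sets gave 0.19 and 0.57, not past the test. VAPB, a tether of the endoplasmic reticulum, the uridine phosphorylase UPP1, the cargo receptor CNIH4 and the p97 cofactor NSFL1C differed by 0.88, 0.80, 0.69 and 0.67. Their hypoxia effects in control cells were -0.16, -0.29, -0.06 and -0.05, none past the test. The other probe set of VAPB gave 0.42, the 4 others of CNIH4 0.13 to 0.17 and the 3 others of NSFL1C 0.14 to 0.31, none past the test. The chemokine CCL5 and the EGR co-repressor NAB2 (1.52) were limited by the floor at the probe sets named, and a second NAB2 probe set gave -0.07 (adjusted p = 0.899). CCL5 was under the threshold on all 6 control arrays and gave 5.52, 5.06 and 6.0 in N_TAX and 6.72, 6.93 and 7.08 in H_TAX (rise with paclitaxel 2.61-fold, difference 1.42 ± 0.27, adjusted p = 0.0341). Other CCL5 probe sets gave 1.29 (adjusted p = 0.017) and 1.15 (adjusted p = 0.101), and with the former CCL5 was the member past the test of 18 inflammatory genes (median 0.07), where 1.07% of all genes had a higher effect. All 8 of these enlarged rises were lost on leaving out some single arrays, with the highest adjusted p between 0.0681 and 0.0974.

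Of the 26 enlarged falls, 1 had a hypoxia effect past the test in control cells. TGOLN2, a trans-Golgi membrane protein, gave 11.45, 11.70 and 11.45 in N_CTL, 11.45, 11.57 and 11.51 in H_CTL, 10.28, 10.36 and 10.28 in N_TAX and 9.48, 9.63 and 9.12 in H_TAX. Control arrays overlapped, N_TAX was lower and H_TAX lower still (difference -0.88 ± 0.17, adjusted p = 0.0398). A second probe set past the test gave -0.78, and 2 others gave -1.0 and -1.16 and did not pass. YIF1A, of transport between the endoplasmic reticulum and the Golgi, gave 11.64, 11.54 and 11.75 in N_CTL, 11.82, 11.72 and 11.76 in H_CTL, 11.39, 11.60 and 11.42 in N_TAX and 10.88, 10.85 and 10.74 in H_TAX, where H_TAX alone was low (difference -0.77 ± 0.12, adjusted p = 0.0238). The clathrin adaptor subunit AP1S3 differed by -0.98 and the vitamin K-dependent carboxylase GGCX by -0.83, while their other probe sets gave -0.84 to -0.60 and -1.01 to -0.09 and did not pass. The TGF-beta co-receptor TGFBR3 gave 4.78, 5.25 and 5.27 in N_CTL, 5.17, 5.74 and 5.59 in H_CTL, 4.70, 4.77 and 4.63 in N_TAX and 3.83, 3.25 and 3.98 in H_TAX (difference -1.41 ± 0.29, adjusted p = 0.044). H_TAX alone was low. Its hypoxia effect was 0.40 and not past the test in control cells, and it fell by 1.01 with paclitaxel, while a second probe set differed by -0.60 (adjusted p = 0.27). ANKRD11, a chromatin regulator, differed by -1.04 at 1 probe set and by -0.94 to -0.01 at 5 others that did not pass. Protogenin (PRTG) and the AMPK subunit PRKAB2 (-1.46 and -1.37) were limited by the floor at the probe sets named, and PRTG missed the threshold (adjusted p = 0.0531) with values under the threshold of presence set to it. The other PRKAB2 probe sets gave -0.53 and -0.14 and did not pass. The highest adjusted p of the 8 enlarged falls without single arrays lay between 0.055 and 0.1.

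For 7 probe sets both effects passed with opposite signs, all below 2-fold. MBTPS2, the site-2 protease that releases membrane-bound transcription factors, gave 5.50, 5.64 and 6.02 in N_CTL, 5.16, 5.02 and 4.88 in H_CTL, 4.38, 4.61 and 4.73 in N_TAX and 5.0, 5.51 and 5.20 in H_TAX. H_CTL lay below N_CTL and H_TAX above N_TAX, without overlap in either pair. It fell by 0.70 in control cells and rose by 0.66 with the drug (difference 1.36 ± 0.23, adjusted p = 0.0266), while a second probe set gave -0.32 (adjusted p = 0.311). The DNA helicase PIF1 gave 5.74, 5.79 and 5.67 in N_CTL, 5.23, 4.80 and 5.42 in H_CTL, 6.23, 6.51 and 6.13 in N_TAX and 6.88, 7.02 and 7.19 in H_TAX. The order of oxygen conditions turned, with paclitaxel arrays above all control arrays (difference 1.32 ± 0.22, adjusted p = 0.0253). The linker histone H1-10 and the mitochondrial protease AFG3L2 also went from a fall to a rise (0.86 and 0.75), but a second AFG3L2 probe set gave 0.22 (adjusted p = 0.48). At 1 probe set each, the lipid flippase ATP8B1 and AIG1 went from a rise to a fall (-0.80 and -0.88). That probe set of AIG1 lay near the floor, and its difference was -0.11 (adjusted p = 0.566) with values under the threshold set to it. The other AIG1 probe sets gave -0.10 (adjusted p = 0.842) and -0.17 (adjusted p = 0.484), and the other of ATP8B1, with hypoxia effects of -0.33 in control cells and -0.60 with paclitaxel, gave -0.26 (adjusted p = 0.528). Without single arrays, the adjusted p of the reversed genes rose to between 0.0575 and 0.106.

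The remaining lists had no member past the test: DNA replication and nucleotide supply (27 genes, median 0.07), sterol and fatty acid synthesis (19, 0.26), tubulins and microtubule regulators (16, 0.06), drug efflux transporters (7, -0.24), interferon-stimulated genes (21, 0.06), immediate early and ERK feedback genes (27, -0.10), EGF receptor ligands and receptors (9, -0.11), NRF2 targets and metallothioneins (17, 0.02), YAP and TEAD targets (20, -0.07), respiratory chain subunits (25, 0.02), polyadenylated histone transcripts (10, 0.01), markers of the line (8, 0.04) and markers of other cell types (2, -0.26). A difference that did not pass is not shown to be absent.

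**Figure D4:**
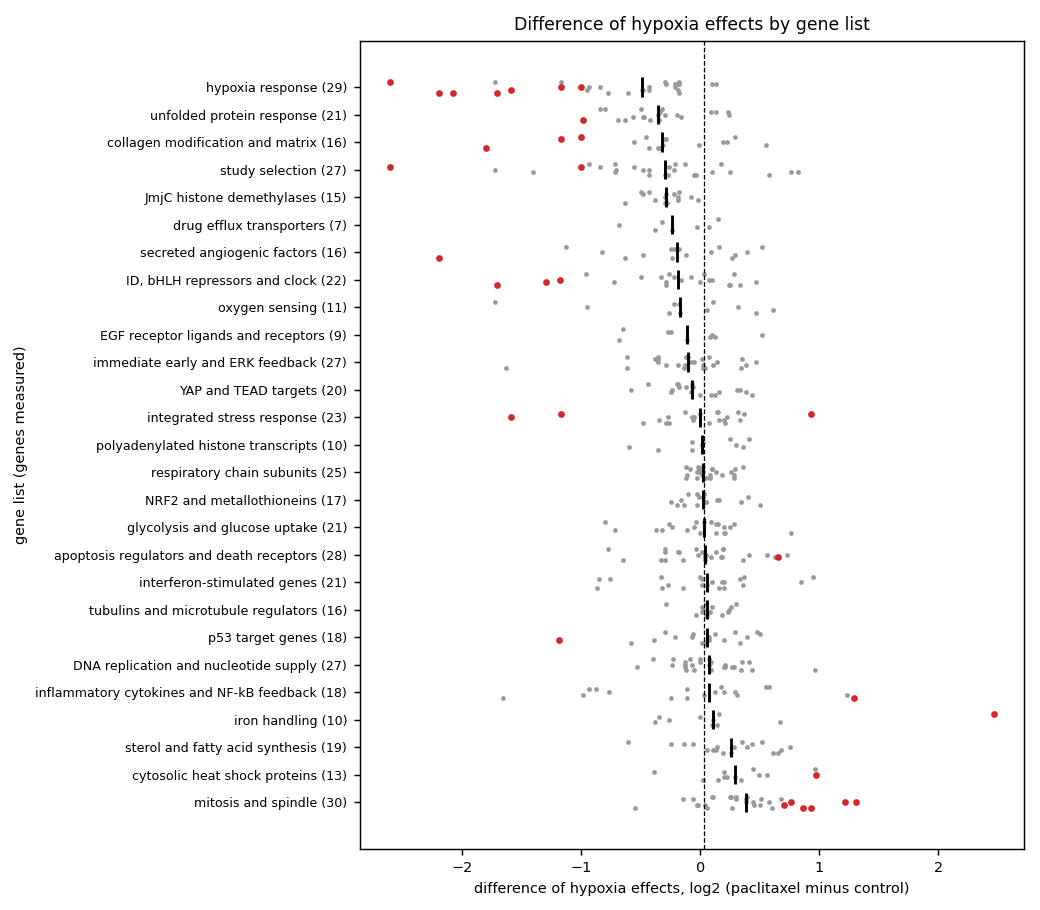
Difference of hypoxia effects (x axis, log2, paclitaxel minus control) for every measured gene of 27 lists (y axis, with the number of genes), with list medians as black bars, genes past the test in red and the median of all genes (0.033) as a dashed line. The hypoxia response list has the most negative median (-0.49) and the mitosis and spindle list the most positive (0.38).

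The calls rest on few arrays. Of the 57 genes named with a difference past the test, 9 kept their call in all 12 fits that left out 1 array: ARTN, APLN, UCN2, RASSF2, FAM162A, DDIT4, ARHGAP5-AS1, ZNF473 and ADAMTS3. Of these, RASSF2, FAM162A and ADAMTS3 were limited by the floor, and the SD of their N_TAX arrays was listed as 0. Values held at the floor vary little, which makes the SE smaller. Without N_CTL replicates 1, 2 and 3 in turn, 18, 9 and 22 of the 57 passed, without those of H_CTL 25, 43 and 44, without those of N_TAX 18, 43 and 19, and without those of H_TAX 54, 22 and 17. With arrays 1 and 2 only, 9 of the 57 passed. With the replicate number as a block, 51 passed, and UPP1, TGFBR3, ATP8B1, P4HA1, DNAJB1 and ATF5 did not. Where a gene had several tested probe sets, they often disagreed. Of 305 genes with a called probe set, 115 had 1 tested probe set and 190 several, and among those 190, every probe set passed for 8 and another probe set had the opposite sign for 35.

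**Figure D5:**
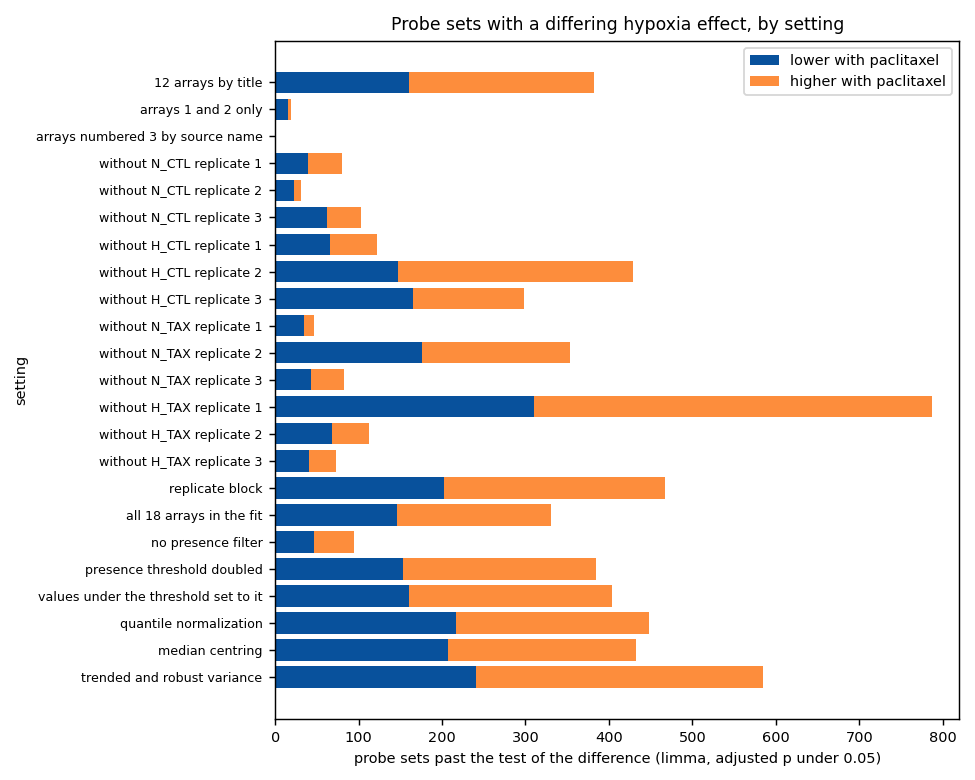
Number of probe sets past the test of the difference (x axis) under each setting (y axis), split into lower and higher hypoxia effects with paclitaxel. The 12 arrays by title gave 382, arrays 1 and 2 only gave 19, and leaving out single arrays gave 31 to 787.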

How the data were processed

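The authors hybridized RNA of MDA-MB-231 cells to Affymetrix whole-genome expression arrays, and the deposited values are log2 signals after GC-RMA normalization by the authors. Rows carry standard Affymetrix names, although AffyProbeMiner definitions are named in the methods. No further normalization was applied here. Of 54613 probe sets without 62 control probe sets, the 23914 with a linear signal over 8.84 on at least 2 arrays of at least 1 condition were tested. Probe sets were named from the platform table with current symbols (41091 with 1 symbol, 1801 with several, 11721 with none), and names of 11118 genes were among those tested. In lists, each gene was taken by its tested probe set with the highest mean.

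The 4 conditions of 3 arrays were fitted together in limma 3.58.1 (R 4.3.3) with 8 residual and 2.75 prior degrees of freedom. Each contrast was tested two-sided, and its p-values were adjusted by Benjamini-Hochberg over the probe sets tested, with 0.05 as the threshold. Among probe sets past the test of the difference, a response was reversed when both hypoxia effects passed with opposite signs. Otherwise it was blunted when the effect in control cells passed and was smaller in absolute size with paclitaxel. It was enlarged when the effect with paclitaxel passed and was larger in absolute size. For blunted and enlarged responses, the effect that was not past the test could have either sign. Where no array of a condition reached the threshold of presence, the fold is given as at least the ratio to that threshold. The fit was tested on simulated data.

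Genes were named as the up to 6 largest differences of each class among genes present in at least 3 conditions, up to 2 limited by the floor, up to 4 per list past the test, up to 3 strongly induced genes of the hypoxia response and glycolysis lists not past it, and the study's own genes. The members and the 29 lists were chosen with earlier results of these data known. The number of arrays limits the precision. The methods describe independent experiments, and where arrays are not separate cultures the p-values measure technical spread. Alternatives were arrays 1 and 2 only, arrays numbered 3 by source name, each array left out, a replicate block, all 18 arrays in 1 fit, no or a doubled threshold of presence, values under the threshold set to it, quantile normalization, median centring, a trended and robust variance and, for lists, the mean of all probe sets of a gene. The sign on the linear scale was added after seeing the data. The epirubicin arrays were otherwise not used. One marker of other cell types is not reported here.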

Additional observations from a re-analysis of the deposited data

Results flagged for a closer look

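For 57 named genes the hypoxia effect differed between control and paclitaxel-treated cells by the test of the difference itself (limma, adjusted p under 0.05), and each value below is that log2 difference, paclitaxel minus control. Each value is that of 1 probe set, and for many of these genes other probe sets did not pass. Some were limited by the floor. With arrays 1 and 2 only, 9 of the 57 passed, and most calls were lost on leaving out some single array. Rises blunted by paclitaxel gave RASSF2 -3.43, ARTN -3.30, FAM162A -3.14, UCN2 -2.71, TMEM45A -2.61, APLN -2.39, ADM -2.20, PPFIA4 -2.08, LINC02535 -1.89, LOX -1.80, MXI1 -1.71, VLDLR -1.59, BHLHE41 -1.30, CCNG2 -1.19, NFIL3 -1.18, LOXL4 -1.17, DDIT4 -1.17, P4HA1 -1.0, PDIA4 -0.99 and CALHM6 -0.88. Falls blunted by it gave TFRC 2.47, ARHGAP5-AS1 1.76, SCLT1 1.65, SMIM7 1.62, INF2 1.61, ZNF473 1.59, ADAMTS3 1.33, PLK1 1.31, CCNF 1.30, CDC20 1.22, DNAJB1 0.97, ATF5 0.93, CCNB1 0.93, KIF20A 0.86 and BIRC5 0.65.

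Rises of the enlarged class gave DHRS2 2.50, NAB2 1.52, CCL5 1.42, COL5A1 0.98, VAPB 0.88, UPP1 0.80, CNIH4 0.69 and NSFL1C 0.67, and enlarged falls gave PRTG -1.46, TGFBR3 -1.41, PRKAB2 -1.37, ANKRD11 -1.04, AP1S3 -0.98, TGOLN2 -0.88, GGCX -0.83 and YIF1A -0.77. Most enlarged responses had no hypoxia effect past the test in control cells. Genes whose response turned from a fall to a rise gave MBTPS2 1.36, PIF1 1.32, H1-10 0.86 and AFG3L2 0.75, and from a rise to a fall AIG1 -0.88 and ATP8B1 -0.80. Groups of 3 arrays were not tested for single outlying arrays.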

How the results depend on the processing

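The number of probe sets past the test of the difference (382) was 19 with arrays 1 and 2 only, 0 with the arrays numbered 3 placed by source name, 95 without a presence filter, 585 with a trended and robust variance and 31 to 787 with single arrays left out. In the same order, blunted rises (133) numbered 14, 0, 37, 206 and 22 to 225, blunted falls (201) 3, 0, 45, 316 and 9 to 426, and list genes past the test (24) 2, 0, 2, 40 and 1 to 32. Enlarged rises (14) numbered 0 with arrays 1 and 2 only, 0 by source name, 3 without the filter, 22 after median centring and 0 to 37 with single arrays left out. Enlarged falls (26) numbered 1, 0, 9, 15 with a doubled threshold and 0 to 68, and reversed responses (7) 1, 0 and 1 without the filter and 0 to 16. Hypoxia effects in control cells (6272) numbered 3373 with arrays 1 and 2 only and 1 by source name, and with paclitaxel (1991) 361, 0, 819 without the filter and 1076 to 2065. Paclitaxel effects (10996 in normoxia, 11724 in hypoxia) were 0 and 0 by source name. The other alternatives kept these counts within 1.5 times. Fewer arrays or more probe sets tested are part of how these alternatives are made; otherwise the cause was not tested.

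By source name, 380 of the 382 probe sets kept their sign. Arrays 1 and 2 stay in their groups there, and the 382 were chosen partly on them, so this is no separate evidence. Of the genes not past the test, the arrays numbered 3 by source name gave PFKFB4 -0.86, S100A10 -0.06, ZNF395 -0.48, AK4 -0.57, RASSF4 -1.04, TNFSF10 -0.52, MALL -0.07 and IL24 0.25, and quantile normalization gave S100A10 -0.02. PFKFB3 (-0.04) was 0.07 and RAB20 (-0.05) was 0.03 with arrays 1 and 2 only. With single arrays left out, PFKFB3 ran from -0.28 to 0.12, RAB20 from -0.15 to 0.10, TNFSF10 (0.17) from -0.09 to 0.49 and GDF15 (0.32) from -0.81 to 0.91.

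With the replicate number as a block, 467 probe sets passed, 310 of them among the 382, and 51 of the 57 named genes stayed past the test. The adjusted p under the block was 0.0507 for UPP1 and TGFBR3, 0.0512 for ATP8B1, 0.0536 for P4HA1, 0.0641 for DNAJB1 and 0.0681 for ATF5, and EGLN3 passed (0.0375). The numbers did not pair the arrays by the rule used: of 18 same-numbered pairs, 7 had a correlation of deviations over 0.1 (range -0.08 to 0.34), although 10 of 12 arrays correlated best with their own number. Every N_CTL and H_CTL pair was over 0.1 (0.16, 0.16 and 0.29). The paper describes its fold inductions as means of ratios, taken from independent experiments. A pairing of the arrays by number is therefore not excluded, and the main fit did not use it. On the linear scale 378 of the 382 differences had the same sign, on the same arrays and therefore not as separate evidence.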
